A study of Homo sapiens with 6 samples.

Results

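ATF4 is a transcription factor that sits at the end of the integrated stress response. When amino acids run short or unfolded protein builds up, kinases phosphorylate eIF2alpha, general translation slows, and the ATF4 message is translated more efficiently, so that the level of ATF4 mRNA is not a measure of ATF4 protein. ATF4 then induces genes for amino acid synthesis and uptake, and further regulators such as DDIT3 (CHOP) that carry a prolonged stress response. Here 10 genes of this programme were followed in RNA sequencing of MDA-MB-231 cells, a human triple-negative breast cancer line: the regulators ATF4 and DDIT3, the pseudokinase TRIB3, the synthesis enzymes PHGDH, PSAT1 and ASNS, the transporter SLC7A5, and the stress effectors CHAC1, SESN2 and DDIT4. They were the rows of the table whose symbol was one of these names, 10 of 61806 genes, and all 10 passed the filter on low counts that left 16110 genes for testing.

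The study compared a control line carrying the shRNA shNC with 2 lines carrying shRNAs against HMGA2, an architectural chromatin protein, named shHMGA2-1 and shHMGA2-2, with 2 libraries each. The knockdown lines were infected with lentivirus, selected with puromycin and grown from single cells according to the methods, so each is 1 clone, while the derivation of the shNC line is not stated, and the effect of an shRNA and of its clone cannot be told apart. No amino acid starvation or other stress treatment is named for any group. In the sample descriptions the libraries titled shNC carry names that read WT and those titled shHMGA2-1 carry names that read SH2. The titles were followed here.

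The 6 libraries held between 16461178 and 17167293 counts in genes, and mitochondrial genes took between 6.74% and 7.86% of them. HMGA2 had 2126 and 2161 counts in the control line, then 858 and 989 in shHMGA2-1 and 435 and 482 in shHMGA2-2, so that each line labelled as a knockdown held less HMGA2 mRNA than the control line, by 2.45-fold and 4.94-fold. VIM, a mesenchymal marker, had at least 35046 counts in every library, whereas CDH1, which epithelial cells express, had at most 4. SPARC, another gene on the mesenchymal list, had at most 6. Of 10 leukocyte markers 7 stayed at or below 3 counts in every library, and CSF1R in 1 shNC library had the highest count of that list, 26. The summed level of 10 luminal markers was 63.6 to 65.1 FPKM (counts scaled by exonic length and library total) in shNC, 59.7 to 68.0 in shHMGA2-1 and 80.2 to 86.7 in shHMGA2-2, and its part in the results was not tested. The list did not move together: in shHMGA2-2, KRT8 rose 2.38-fold and GATA3 5.53-fold, whereas KRT19 fell 5.49-fold and FOXA1 fell from 110 and 94 counts in shNC to 5 and 1 (these markers were named after their values were seen). In these bulk samples fewer cells of a type and less RNA per cell cannot be told apart. The p-values measure only the spread between these libraries, since nothing says that they came from separate cultures.

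One sequence feature of this programme can be read next to the values. The C/EBP-ATF response element, the site at which ATF4 binds with a C/EBP partner, was searched for by its core TGATGNAA, on both strands, in the 300 bases around each RefSeq start site (GRCh38.p14). The 10 genes had 15 such windows, and 2 of them held the core, those of ASNS and CHAC1. Of all 35116 windows of this length 3.62% held it. Both matches are printed on the strand of the gene, with the core in capitals, because they were the only ones found in these windows. The ASNS match lies 68 to 61 bases before the start and spans part of chr7:97872458-97872487 on the minus strand.
ASNS: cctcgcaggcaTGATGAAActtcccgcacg
The CHAC1 match lies 209 to 202 bases before the start, within chr15:40953251-40953280 on the plus strand, and reads TGATGCAA on the opposite strand.
CHAC1: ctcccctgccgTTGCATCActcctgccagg
Both matches lie inside the gene as given by the coordinates below, which begin upstream of these RefSeq starts. For the other 8 genes these letters were not in the windows, which says nothing about binding elsewhere.

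The genes of the programme did not move as a group. Against shNC, 4 of the 10 were higher and 3 lower in shHMGA2-1, and 4 were higher and 4 lower in shHMGA2-2 (edgeR quasi-likelihood test, Benjamini-Hochberg adjusted p below 0.05). Of all genes tested 15.8% were higher and 17.7% lower in shHMGA2-1, and 29.5% were higher and 29.2% lower in shHMGA2-2, so that calls in both directions were frequent across the whole transcriptome. The median log2 fold change of the 10 genes was 0.16 in shHMGA2-1 and 0.01 in shHMGA2-2, against 0.01 and 0.03 over all genes tested. Between the knockdown lines themselves 3 of the 10 were higher and 4 lower in shHMGA2-2 than in shHMGA2-1, where the background was 24.5% and 25.7%. Both comparisons with shNC use the same control libraries and are therefore not independent.

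**Figure D1:**
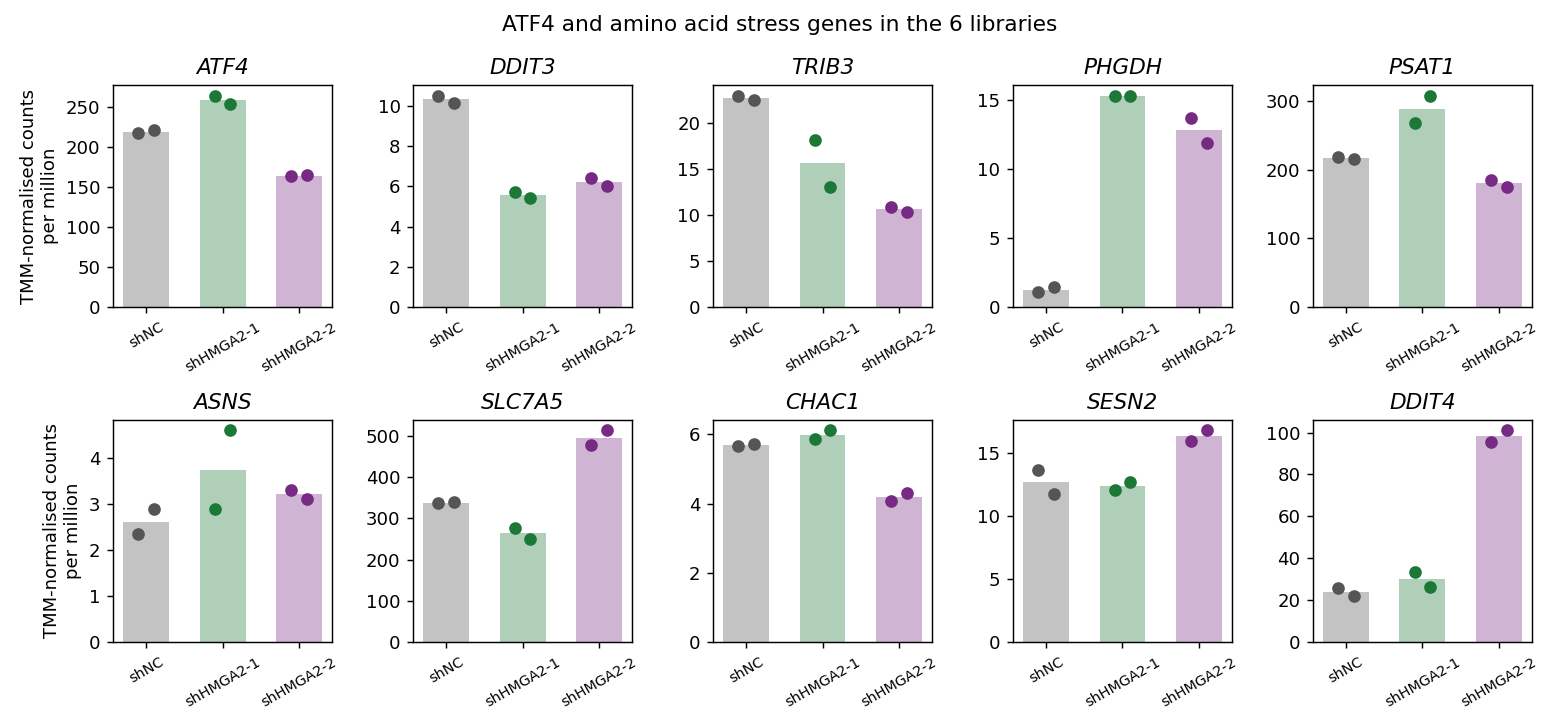
Each panel shows 1 gene, with CPM (TMM-normalised counts on a common library total) on a linear axis from 0, a point for each library and a bar for the mean of the 2 libraries of a line. PHGDH had a CPM of 1.11 and 1.48 in shNC and of 11.9 to 15.4 in the knockdown lines, DDIT4 was highest in shHMGA2-2, and ATF4 and PSAT1 were highest in shHMGA2-1 and lowest in shHMGA2-2.

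The levels per length spanned a wide range. In shNC, PSAT1 had 94.3 ± 0.7 FPKM (SD, n = 2), ATF4 80.5 ± 0.665 and SLC7A5 68.0 ± 0.467. These abundant genes were followed by DDIT4 at 10.8 ± 1.12 FPKM, DDIT3 at 7.57 ± 0.198, TRIB3 at 6.62 ± 0.099, SESN2 at 3.52 ± 0.382 and CHAC1 at 2.65 ± 0.021. ASNS, with 0.515 ± 0.078 FPKM, and PHGDH, with 0.135 ± 0.021, stood at the bottom of the order. No neighbours in this order overlapped between their libraries in shNC. The order was not the same in the knockdown lines. SLC7A5 led in shHMGA2-2 with 108 ± 7.27 FPKM, and PHGDH stood above ASNS in both knockdown lines. DDIT3 and TRIB3 overlapped in shHMGA2-1, and DDIT3 and SESN2 overlapped in shHMGA2-2.

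**Figure D2:**
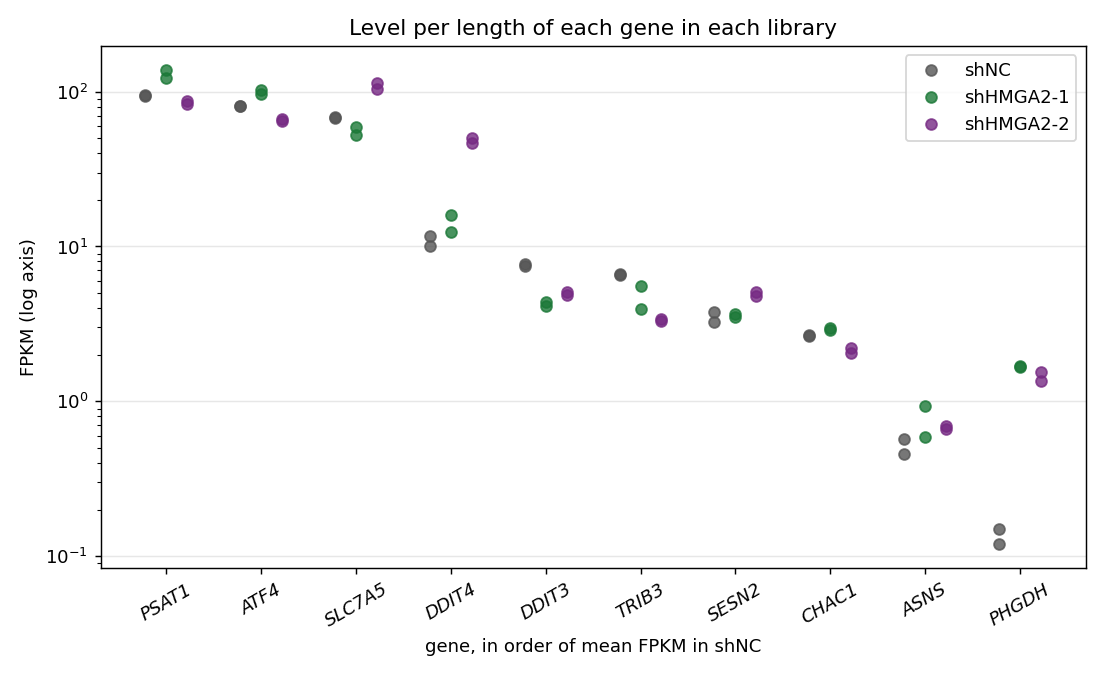
FPKM of each gene in each of the 6 libraries on a log axis, with genes in order of their mean level in shNC and colours for the 3 lines. PSAT1, ATF4 and SLC7A5 lie above 50 FPKM in every library, and PHGDH is the gene whose points for the knockdown lines lie farthest above those for shNC.

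ATF4, the regulator itself (GRCh38.p13, as for all genes, chromosome 22, 39519695 to 39522683, plus strand), had a CPM of 265 and 254 in shHMGA2-1 and 164 and 165 in shHMGA2-2, against 218 and 221 in shNC. The 3 lines did not overlap, with shHMGA2-1 above and shHMGA2-2 below the control. The log2 fold change against shNC was 0.24 ± 0.06 (SE, adjusted p = 0.00516, edgeR) in shHMGA2-1 and −0.42 ± 0.06 (adjusted p = 6.02e-06) in shHMGA2-2. The direct difference of shHMGA2-2 from shHMGA2-1 was −0.66 ± 0.06 (adjusted p = 6.68e-09), a 1.58-fold lower level. The rise in shHMGA2-1 was no longer called without the shNC library 1 (adjusted p = 0.101) or without the shNC library 2 (adjusted p = 0.0704). Its 4 pseudogenes in the table had at most 10 counts, in ATF4P3, against at least 2779 for ATF4.

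DDIT3 encodes CHOP, a C/EBP-family factor that ATF4 induces and that promotes cell death when stress persists (chromosome 12, 57516588 to 57521737, minus strand). Its CPM was 10.5 and 10.1 with shNC, 5.70 and 5.41 with shHMGA2-1 and 6.43 and 6.01 with shHMGA2-2. All 4 knockdown libraries lay below both control libraries. DDIT3 fell by 0.89 ± 0.17 on the log2 scale in shHMGA2-1 (adjusted p = 1.53e-04) and by 0.73 ± 0.16 in shHMGA2-2 (adjusted p = 4.57e-04). Between the knockdown lines the difference was 0.16 with a 95% interval of −0.20 to 0.52 (adjusted p = 0.466).

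DDIT3 shares its locus with other genes, and whether strand was used in the counting is not given in the sources used here. In GENCODE 29, 39.6% of its exonic bases also lie in exons of other genes, most of them in the methionyl-tRNA synthetase gene MARS1 (27.2%) and fewer in MBD6 (4.44%), both on the opposite strand. A further 8.03% lie in AC022506.1 (ENSG00000285133), a protein-coding gene on the same strand that had 0 counts in every library. MARS1, itself a cytosolic aminoacyl-tRNA synthetase, had 2430 and 2421 counts in the control line, then 3036 and 2779 in shHMGA2-1 and 2101 and 2260 in shHMGA2-2, which was higher in the first line (adjusted p = 0.0452) and lower in the second (adjusted p = 0.00595). MBD6 fell in both lines, by 0.59 ± 0.11 and 0.54 ± 0.11 on the log2 scale (adjusted p = 2.01e-04 and 1.89e-04). The part of these neighbours in the DDIT3 values was not tested.

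TRIB3, a pseudokinase that ATF4 and CHOP induce and that dampens their activity (chromosome 20, 362835 to 397559, plus strand), had a CPM of 18.2 and 13.1 in shHMGA2-1 and 10.9 and 10.4 in shHMGA2-2, against 23.0 and 22.5 in shNC. The libraries fell in the order shNC, shHMGA2-1, shHMGA2-2 with no overlap, although those of shHMGA2-1 lay far apart. TRIB3 fell by 0.54 ± 0.14 in shHMGA2-1 (adjusted p = 0.00316) and by 1.10 ± 0.14 in shHMGA2-2 (adjusted p = 4.03e-07) on the log2 scale, the latter a 2.14-fold lower level. It was also lower in shHMGA2-2 than in shHMGA2-1, with a log2 fold change of −0.56 ± 0.15 (adjusted p = 0.00273). The call in shHMGA2-1 was lost without its library 2 (−0.32, adjusted p = 0.0576), and the difference between the knockdown lines was lost without its library 1 (−0.30, adjusted p = 0.109). Both were also lost in limma on log2(FPKM + 1), with adjusted p of 0.0694 and 0.060.

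PHGDH and PSAT1 catalyse the first and the second step of serine synthesis from a glycolytic intermediate, and MDA-MB-231 is known as a line with little PHGDH. PHGDH (chromosome 1, 119648411 to 119744218, plus strand) had 18 and 24 counts with shNC, 266 and 261 with shHMGA2-1 and 233 and 208 with shHMGA2-2. Every knockdown library lay far above both control libraries. The fold was 11.8 in shHMGA2-1 (log2 3.56 ± 0.21, adjusted p = 1.30e-12) and 9.89 in shHMGA2-2 (log2 3.31 ± 0.21, adjusted p = 1.27e-12), the strongest rise of the 10 genes in each line. The knockdown lines did not differ from each other beyond the threshold, with a log2 difference of −0.26 and a 95% interval of −0.55 to 0.03 (adjusted p = 0.131). Even so the level stayed low, at 1.68 ± 0.021 and 1.45 ± 0.127 FPKM, on an exonic size of 9187 bases in the table, the longest of the 10 genes.

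PSAT1 (chromosome 9, 78297125 to 78330093, plus strand), the transaminase that follows PHGDH, was already among the abundant genes in shNC. Its CPM was 218 and 216 in the control line, then 268 and 308 in shHMGA2-1 and 185 and 175 in shHMGA2-2. As for ATF4, the lines did not overlap, with shHMGA2-1 above and shHMGA2-2 below the control. The log2 fold change was 0.41 ± 0.07 (adjusted p = 6.66e-05) in shHMGA2-1 and −0.27 ± 0.07 (adjusted p = 0.00222) in shHMGA2-2. Between the knockdown lines PSAT1 was 1.60-fold lower in shHMGA2-2 (adjusted p = 1.83e-08). The fall in shHMGA2-2 was lost without its library 2 (−0.24, adjusted p = 0.0512), under upper quartile normalisation (adjusted p = 0.0575) and in limma on log2(FPKM + 1) (adjusted p = 0.0858).

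ASNS, which makes asparagine from aspartate and glutamine (chromosome 7, 97851677 to 97872542, minus strand), had 50 and 78 counts in shHMGA2-1 and 56 and 54 in shHMGA2-2, against 38 and 47 in shNC. At these low counts no comparison was called. The log2 fold change was 0.51 with a 95% interval of −0.04 to 1.07 in shHMGA2-1 (adjusted p = 0.154) and 0.29 with an interval of −0.28 to 0.86 in shHMGA2-2 (adjusted p = 0.379), so that a change of 2-fold was not excluded by the interval in shHMGA2-1. Without the shHMGA2-1 library 1 the first of these became 0.81 (adjusted p = 0.0354). Between the knockdown lines the difference was −0.22 with an interval of −0.76 to 0.31 (adjusted p = 0.503), and it changed sign, to 0.15, without the shHMGA2-1 library 2.

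The ASNS gene lies inside a longer gene on the same strand, ENSG00000284707, which GENCODE 29 lists as AC079781.5, a processed transcript. In that annotation 44.6% of the exonic bases of ASNS, 1985 of 4455, also belong to exons of AC079781.5. The longer gene had 48 and 46 counts with shNC, 70 and 69 with shHMGA2-1 and 41 and 42 with shHMGA2-2. It was lower in shHMGA2-2 than in shHMGA2-1 (log2 −0.74 ± 0.24, adjusted p = 0.0136) and was not called against shNC (adjusted p = 0.129 and 0.406). Reads in shared exons can be left out by a gene counter, while FPKM divides by the whole exonic size. The ASNS level is therefore uncertain and may be too low, and the part of this overlap in it was not tested.

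SLC7A5, the catalytic chain of the LAT1 exchanger that imports leucine and other large neutral amino acids (chromosome 16, 87830023 to 87869507, minus strand), had a CPM of 336 and 339.6 in the control line, then 277 and 251 in shHMGA2-1 and 478 and 513 in shHMGA2-2. The lines did not overlap, and here shHMGA2-2 lay above and shHMGA2-1 below the control, the opposite order to ATF4 and PSAT1. SLC7A5 fell by 0.35 ± 0.07 on the log2 scale in shHMGA2-1 (adjusted p = 1.46e-04) and rose by 0.55 ± 0.07 in shHMGA2-2 (adjusted p = 8.66e-08). The level in shHMGA2-2 was 1.88-fold that in shHMGA2-1 (adjusted p = 2.50e-11). An antisense gene shares 5.71% of the exonic bases of SLC7A5 in GENCODE 29 and had at most 10 counts. SLC3A2, the heavy chain that holds SLC7A5 at the cell surface and was named for that role after its values were seen, had 2848 and 2587 counts in shHMGA2-1 and 3468 and 3680 in shHMGA2-2, against 3388 and 3405 in shNC. It fell in shHMGA2-1 (log2 −0.40 ± 0.07, adjusted p = 4.70e-05), and in shHMGA2-2 its difference from shNC was −0.01 with an interval of −0.14 to 0.13 (adjusted p = 0.935).

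**Figure D3:**
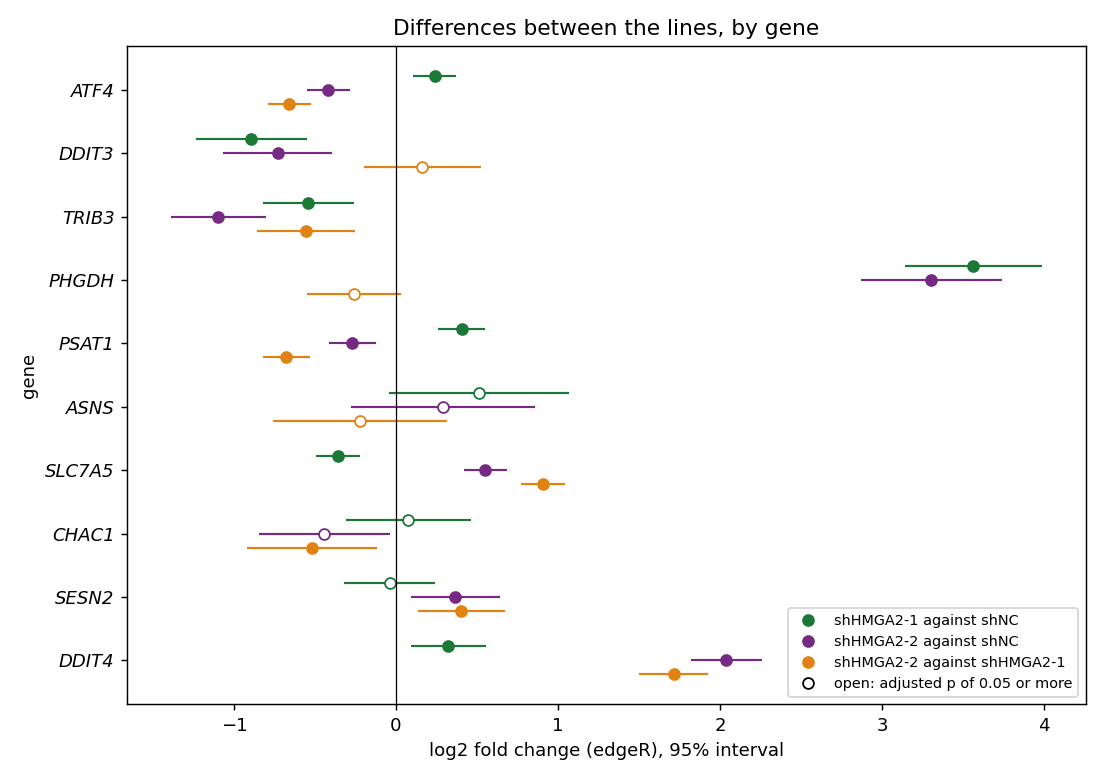
Log2 fold change with its 95% interval for each gene in 3 comparisons, shown by colour, with filled points where the edgeR adjusted p was below 0.05. ATF4 and PSAT1 lie right of 0 in shHMGA2-1 and left of 0 in shHMGA2-2, SLC7A5 lies the other way, DDIT3 and TRIB3 lie left of 0 in both lines, and PHGDH lies above 2.8 in both.

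CHAC1, a cytosolic enzyme that degrades glutathione and is induced through ATF4 (chromosome 15, 40952962 to 40956512, plus strand), had a CPM of 5.65 and 5.72 with shNC, 5.87 and 6.12 with shHMGA2-1 and 4.07 and 4.29 with shHMGA2-2. The values of shNC and shHMGA2-1 lay close together, and both libraries of shHMGA2-2 lay below them. Neither comparison with shNC passed the threshold, with log2 fold changes of 0.08 (95% interval −0.31 to 0.46, adjusted p = 0.798) and −0.44 (−0.85 to −0.04, adjusted p = 0.0563), the second of which passed only in limma on log2(FPKM + 1) (adjusted p = 0.0495). Between the knockdown lines CHAC1 was lower in shHMGA2-2, with a log2 difference of −0.52 ± 0.19 (adjusted p = 0.0283), a call that was lost with DESeq2 (adjusted p = 0.130). It was also lost without any one of the 4 knockdown libraries, with adjusted p of 0.0568 and 0.0945 without the shHMGA2-1 libraries 1 and 2, and 0.114 and 0.0721 without the shHMGA2-2 libraries 1 and 2.

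SESN2, a sestrin that binds leucine and restrains mTORC1 when leucine is scarce (chromosome 1, 28259518 to 28282491, plus strand), had a CPM of 13.7 and 11.7 in the control line, then 12.1 and 12.7 in shHMGA2-1 and 16.0 and 16.8 in shHMGA2-2. Both shHMGA2-1 libraries lay within the range of shNC, and both shHMGA2-2 libraries lay above it. SESN2 rose by 0.37 ± 0.13 on the log2 scale in shHMGA2-2 (adjusted p = 0.0194) and was 0.40 ± 0.13 above shHMGA2-1 there (adjusted p = 0.0125). In shHMGA2-1 the difference from shNC was −0.04 with an interval of −0.32 to 0.24 (adjusted p = 0.873). The rise was lost with DESeq2 (adjusted p = 0.0775), without a filter (adjusted p = 0.0536), without the shNC library 2 (adjusted p = 0.206) and without the shHMGA2-2 library 1 or 2 (adjusted p = 0.0527 and 0.122). The difference from shHMGA2-1 was lost without the shHMGA2-2 library 2 (adjusted p = 0.0954).

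DDIT4 encodes REDD1, an inhibitor of mTORC1 that is induced by hypoxia, glucocorticoids and ATF4 (chromosome 10, 72273919 to 72276036, plus strand). Its CPM was 33.4 and 26.5 in shHMGA2-1 and 95.5 and 101 in shHMGA2-2, against 25.7 and 22.2 in shNC. The shHMGA2-2 libraries stood well above the other 4, which lay close together. DDIT4 rose 4.11-fold in shHMGA2-2 (log2 2.04 ± 0.11, adjusted p = 2.80e-14) and was 3.28-fold higher there than in shHMGA2-1 (adjusted p = 7.23e-13). In shHMGA2-1 the log2 fold change was 0.32 ± 0.11 (adjusted p = 0.0294), which was lost with DESeq2 (adjusted p = 0.0644) and in limma on log2(FPKM + 1) (adjusted p = 0.0832). It was also lost without the shNC library 2 (0.22, adjusted p = 0.327), without the shHMGA2-1 library 1 (0.15, adjusted p = 0.345), and without the shHMGA2-2 library 1 or 2 (adjusted p = 0.0662 and 0.0704).

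When the 4 knockdown libraries were taken as 1 group against shNC, 2 of the 10 genes were called, against a background of 2.34% higher and 2.92% lower. PHGDH was higher (log2 3.44 ± 0.24, adjusted p = 0.0029) and DDIT3 was lower (log2 −0.81 ± 0.16, adjusted p = 0.0433). ATF4, which moved in opposite directions in the lines, had a log2 fold change of −0.05 with an interval of −0.61 to 0.51 (adjusted p = 0.906), and DDIT4 had one of 1.42 with an interval of −0.08 to 2.92 (adjusted p = 0.214). Neither call remained without the shNC library 1 or 2, where PHGDH had log2 fold changes of 3.24 and 3.66 (adjusted p = 0.0825 and 0.081) and DDIT3 of −0.79 and −0.83 (adjusted p = 0.333 and 0.317). Either setting left 2 higher and 2 lower genes of all 16110, down from 377 and 471, so that nearly all calls of this comparison were lost with them. DDIT3 was also not called without any one of the knockdown libraries, with adjusted p of 0.0815 and 0.0653 without the shHMGA2-1 libraries 1 and 2, and 0.0816 and 0.0877 without the shHMGA2-2 libraries 1 and 2.

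Around PHGDH and PSAT1, the list of serine, glycine and one-carbon enzymes had 9 tested genes. Of these 2 were higher and 1 lower in shHMGA2-1, and 5 were higher and 3 lower in shHMGA2-2, with medians of 0.08 and 0.25 on the log2 scale against 0.01 and 0.03 over all genes. In shares that was 22.2% higher and 11.1% lower in shHMGA2-1, where 15.8% and 17.7% of all genes were called, and 55.6% and 33.3% in shHMGA2-2, where 29.5% and 29.2% were. PSPH, the last enzyme of serine synthesis, named for that role after its values were seen, had 506 and 567 counts with shNC, 677 and 724 with shHMGA2-1 and 649 and 712 with shHMGA2-2. It rose by 0.31 ± 0.10 and 0.26 ± 0.10 on the log2 scale (adjusted p = 0.0189 and 0.0264). SHMT1, the cytosolic enzyme that turns serine into glycine, rose 2.25-fold in shHMGA2-2 (adjusted p = 4.86e-10) and by 0.37 ± 0.11 on the log2 scale in shHMGA2-1 (adjusted p = 0.00833). ALDH1L2, a mitochondrial folate enzyme with at most 22 counts, rose 2.87-fold in shHMGA2-2 (adjusted p = 0.0186). Among 11 other amino acid synthesis enzymes 5 were higher and 2 lower in shHMGA2-1 (45.5% and 18.2%). In shHMGA2-2, 6 were higher and 3 lower (54.5% and 27.3%). The shares of lower genes were near those over all genes, whereas the shares of higher genes lay above the 15.8% and 29.5% over all genes. ASS1, which makes argininosuccinate on the way to arginine, had 30 and 28 counts in the control line, then 93 and 90 in shHMGA2-1 and 186 and 222 in shHMGA2-2, a rise of 2.98-fold and 6.62-fold (adjusted p = 6.69e-06 and 3.39e-11).

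Beside SLC7A5, 12 other amino acid transporter genes were tested, of which 8 were lower and 1 higher in shHMGA2-1, and 7 lower and 2 higher in shHMGA2-2. The lower genes were 66.7% and 58.3% of the list, against 17.7% and 29.2% over all genes, and the higher genes 8.33% and 16.7%, against 15.8% and 29.5%. Their median log2 fold change was −0.37 and −0.40, against 0.01 and 0.03 over all genes. SLC7A11, the cystine importer xCT and a gene that ATF4 induces, had 1860 and 2051 counts in shHMGA2-1 and 857 and 759 in shHMGA2-2, against 7706 and 7219 in shNC. It fell 4.03-fold in the first line (adjusted p = 1.17e-15) and 9.76-fold in the second (adjusted p = 3.77e-20). SLC38A4, a sodium-coupled neutral amino acid transporter, fell 2.51-fold and 3.54-fold (adjusted p = 3.30e-06 and 1.58e-08). SLC7A2, a cationic amino acid transporter, fell 1.67-fold and 3.05-fold (adjusted p = 3.19e-06 and 3.44e-12).

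Of 16 tested genes on a list of other ATF4 and CHOP stress targets, 5 were higher and 2 lower in shHMGA2-1, whereas 3 were higher and 9 lower in shHMGA2-2, with medians of 0.07 and −0.32, the second of which stayed at −0.32 with NUPR1 at its bound. The shares were 31.2% higher and 12.5% lower in shHMGA2-1, against 15.8% and 17.7% of all genes, and 18.8% and 56.2% in shHMGA2-2, against 29.5% and 29.2%. Between the knockdown lines 1 was higher and 11 were lower in shHMGA2-2 (6.25% and 68.8%, against 24.5% and 25.7% of all genes), with a median of −0.39. NUPR1, a small chromatin-associated stress protein, had 36 and 38 counts in the control libraries, 60 and 50 in shHMGA2-1 and 0 in both shHMGA2-2 libraries, which is at least 13-fold lower than in shNC when 3 counts are taken as the floor in each library. VLDLR, a lipoprotein receptor, rose 4.21-fold in shHMGA2-1 and 3.23-fold in shHMGA2-2 (adjusted p = 3.11e-13 and 2.53e-12). SQSTM1, the autophagy receptor p62, fell 1.99-fold and 2.97-fold (adjusted p = 2.60e-11 and 9.99e-16). GDF15 and FGF21 did not pass the filter.

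Upstream of ATF4, 14 genes for eIF2alpha kinases, eIF2, eIF2B and their regulators were all tested. In shHMGA2-1, 2 were higher, 2 lower and 10 not called, and in shHMGA2-2, 3 were higher and 7 lower, with medians of −0.07 and −0.24. The shares of 14.3% in either direction in shHMGA2-1 were near the 15.8% and 17.7% over all genes, and in shHMGA2-2 they were 21.4% higher and 50% lower, against 29.5% and 29.2%. No gene of this list was both called and changed by 2-fold or more against shNC. Among 6 tested paralogs of the 10 genes, 1 was higher and 2 lower in shHMGA2-1 (16.7% and 33.3%), and 1 was higher and 3 lower in shHMGA2-2 (16.7% and 50%), against 15.8% and 17.7%, and 29.5% and 29.2%, of all genes. TRIB1, a relative of TRIB3, fell 2.83-fold in shHMGA2-2 (adjusted p = 1.98e-09), and in shHMGA2-1 it had a log2 fold change of 0.23 with an interval of −0.02 to 0.48 (adjusted p = 0.162). SESN3, a relative of SESN2, had 222 and 221 counts with shNC, 572 and 727 with shHMGA2-1 and 210 and 267 with shHMGA2-2. It rose 2.78-fold in shHMGA2-1 (adjusted p = 3.16e-09), the line in which SESN2 was not called, and in shHMGA2-2 the difference was 0.03 with an interval of −0.27 to 0.32 (adjusted p = 0.897).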

How the data were processed

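Captured mRNA of 6 MDA-MB-231 libraries was sequenced by the submitters. Their processing notes name HISAT2 2.2.1, HTSeq 0.6.1 and the build GRCh38.p13. The annotation release, the strand setting and the overlap mode of the counter are not given in the sources used here. The authors deposited 1 table with raw counts per gene and with FPKM, which equal the deposited counts divided by exonic size and by the total of the library. The 2 values agreed within 0.01 for 100.0% of entries. Counts were tested with edgeR 4.0.16 in R 4.3.3 (TMM, filterByExpr, quasi-likelihood F-test) in a model of 3 groups with 3 residual degrees of freedom, and the pooled comparison in a model of 2 groups. Benjamini-Hochberg adjustment ran over 16110 genes, and genes at an adjusted p below 0.05 were called. Replicates differed beyond sampling noise in every line (chi-square per degree of freedom 2.05 to 6.62). Alternatives were DESeq2 1.42.0, limma 3.58.1 on log2(FPKM + 1), other normalisations and filters, a replicate block and each library left out. The edgeR code was run on simulated counts with the same spread in all libraries and equal changes in both knockdown lines. That run checks the code only, since the lines here differ in spread and from each other. Gene coordinates are those of the table. Exon overlaps were computed from GENCODE 29, whose gene ends equalled those of the table for 2 of the 10 genes, and promoter sequences are from RefSeq (GRCh38.p14). The 10 genes and all lists were chosen with earlier results of these data known. Named genes are the 10, HMGA2, overlapping genes, pseudogenes, and in each list up to 3 genes with the strongest change among those called and changed at least 2-fold in a knockdown line. SLC3A2, PSPH and the cell type markers were named outside this rule. At this depth 3 counts correspond to 0.172 to 0.184 CPM.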

Additional observations from a re-analysis of the deposited data

Results flagged for a closer look

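The effects of the 2 shRNAs were set against each other in the direct comparison of the knockdown lines (edgeR, 2 libraries each), which tests the difference between the effects since both share the shNC control. Of the 10 genes 3 were higher and 4 lower in shHMGA2-2 at an adjusted p below 0.05, where 24.5% of all genes were higher and 25.7% lower. The log2 difference of shHMGA2-2 from shHMGA2-1 was −0.657 for ATF4, −0.676 for PSAT1, −0.556 for TRIB3 and −0.518 for CHAC1, which were lower in shHMGA2-2. It was 1.72 for DDIT4, 0.907 for SLC7A5 and 0.405 for SESN2, which were higher there. The calls for TRIB3, CHAC1 and SESN2 were lost when single libraries were left out, with the values given in the report. HMGA2 itself was 2.02-fold lower in shHMGA2-2 than in shHMGA2-1 (adjusted p = 2.89e-09), and its part in these differences was not tested.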

How the results depend on the processing

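Of 526 values of the 10 genes under the alternatives, 473 kept their direction and call, 37 lost the call, 6 gained it and 10 changed sign, none of those 10 in a comparison that was called. The sign changes were SESN2 in shHMGA2-1 (0.0269 with upper quartile normalisation, 0.0231 in limma and −0.144 to 0.0743 with 1 library left out), ASNS between the knockdown lines (−0.521 to 0.151 with 1 library left out), and in the pooled comparison ATF4 (0.0329 with upper quartile normalisation, 0.00365 in limma, and −0.176 to 0.0535 with 1 library left out), PSAT1 (−0.0515 to 0.219) and SLC7A5 (−0.0168 to 0.323), the last 2 with 1 library left out. Upper quartile normalisation moved the median of all genes in shHMGA2-2 from 0.03 to 0.14.

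Called genes numbered 5 to 7 in shHMGA2-1, 6 to 8 in shHMGA2-2 and 5 to 7 between the knockdown lines under all alternatives. In the pooled comparison the 2 calls became 1 with upper quartile normalisation, without a filter and with the replicate block, 4 when both shRNA contrasts were averaged in 1 fit (PHGDH and DDIT4 higher, DDIT3 and TRIB3 lower, where 3820 of all 16110 genes were higher and 4196 lower), and 0 to 2 with 1 library left out. Calls over all genes also moved with the setting. With DESeq2, 1730 of 16110 genes were higher and 2423 lower in shHMGA2-1, against 2546 and 2844 with edgeR and TMM. The DESeq2 numbers were 3976 and 4252 in shHMGA2-2, against 4759 and 4707. Between the knockdown lines they were 3264 and 3469, against 3949 and 4145. ASNS did not pass the filter at a mean FPKM of 1. Replicate numbers are shared between the lines, but nothing says that they pair the libraries, and deviations of same-numbered libraries correlated at −0.0242, 0.00364 and −0.179. The replicate block changed 1 of 40 calls, that of DDIT3 in the pooled comparison (−0.81, adjusted p = 0.129, edgeR). With the block that comparison had 72 higher and 80 lower genes of all 16110, down from 377 and 471. Most of its calls were thus lost, not only that of DDIT3. With 1 library left in a line, that library is assumed to vary like the others. The causes of these changes were not tested. Low counts limit ASNS, and PHGDH in shNC.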

Other observations

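Other arms of the stress response were measured in the same libraries. Of 21 tested genes for endoplasmic reticulum chaperones and the unfolded protein response, 3 were higher and 3 lower in shHMGA2-1, and 7 were higher and 9 lower in shHMGA2-2. Their median log2 fold change was −0.12 in the first line and 0.00 in the second, and none was both called and changed by 2-fold or more against shNC. The 20 cytosolic aminoacyl-tRNA synthetases, many of them induced through ATF4, had 5 higher and 5 lower in shHMGA2-1, and 4 higher and 8 lower in shHMGA2-2, again with none both called and changed by 2-fold. Of 20 genes of the sestrin and mTORC1 amino acid sensing machinery, 2 were higher and 3 lower in shHMGA2-1, and 6 were higher and 2 lower in shHMGA2-2, while 15 and 12 were not called. These shares can be read against 15.8% higher and 17.7% lower genes in shHMGA2-1 and 29.5% and 29.2% in shHMGA2-2 over the transcriptome.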
